A study of Mus musculus with 18 samples.

Results

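The clustered protocadherins are 58 genes that lie in 3 arrays on mouse chromosome 18. They were taken from the expression table by symbol, as every gene named Pcdha, Pcdhb, Pcdhga, Pcdhgb or Pcdhgc with a number, together with Pcdhac1 and Pcdhac2. This gave 14 Pcdha (alpha), 22 Pcdhb (beta) and 22 Pcdhg (gamma) genes of the 23359 symbols in the table, and no member symbol occurred more than once. In the RefSeq annotation of GRCm38.p6, the build family to which the reads were mapped, all 58 were found on chromosome 18, with the alpha cluster at chr18:36930285-37188897, the beta cluster at chr18:37264998-37521419 and the gamma cluster at chr18:37661775-37841873. A further row, Pcdha4-g, has a symbol that this pattern does not take and was kept out of the member counts.

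Clustered protocadherins are cadherin-type adhesion proteins of the neuronal surface. In the alpha and gamma clusters each variable first exon has its own promoter and is spliced to constant exons shared by the whole cluster, whereas a beta gene is a single exon. Most members are chosen stochastically in each neuron through CTCF and cohesin, which bring a promoter to a distant enhancer, while the C-type members (Pcdhac1, Pcdhac2, Pcdhgc3, Pcdhgc4 and Pcdhgc5) follow different rules. The resulting combination of isoforms is known to let a neurite recognise and avoid its own branches, and the clusters are known to be needed for the axons of olfactory sensory neurons (OSNs) to reach their glomeruli in order.

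The RNA came from fluorescence-sorted cells of the mouse main olfactory epithelium (MOE). The strain was C57BL/6 per the labels, while the study's reporting summary gives a mixed background. Libraries were made by Smart-seq2, a full-length cDNA method for small inputs. In the line labelled TAAR5-Cre&L10-GFP (Taar5-ires-Cre; lox-L10-GFP, postnatal days 11 to 14), 7 libraries were GFP-positive (Taar5+) and 9 were GFP-negative (control). In the line labelled TAAR6-Cre&ZsGreen (Taar6-ires-Cre; lox-ZsGreen, postnatal days 16 to 17), 1 library was ZsGreen-positive (Taar6+) and 1 was ZsGreen-negative. Every animal thus carried a Cre knocked in behind the stop codon of a Taar gene and a Cre-dependent reporter, and positive and control cells differ in reporter fluorescence within one genotype. The reporter stays on in any cell that once made Cre, and control cells are whatever remained outside the gate, a mixture of OSNs and other MOE cells. A library is therefore an average over many neurons, and fewer cells that use a member and less RNA of it per cell cannot be told apart.

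Values are TPM, a relative transcript abundance in which each library has about the same total. They are scaled by transcript length and so allow levels of different genes to be set side by side within a library. Alpha and gamma members share constant exons, however, and how shared reads were divided is not stated. Levels set side by side between members or clusters depend on that division. Taar5 itself was at 47.0 to 347 TPM in the Taar5+ libraries and at 0 to 7.71 TPM in the controls, and Taar6 was at 1576 TPM in the Taar6+ library and at 15.8 TPM in its control. The summed TPM of 6 mature OSN markers ran from 12940 to 23850 in Taar5+ and from 5149 to 26260 in control libraries, so both groups held mature OSNs. Markers of other cells were less even: 4 blood and immune markers summed to 0 to 393 TPM in Taar5+ and 74.3 to 826 TPM in control libraries, with medians of 13.2 and 247 TPM. Medians were 5.01 TPM in Taar5+ and 97.95 TPM in control libraries for 3 horizontal basal cell markers, 5.73 and 122 TPM for 3 microvillar markers and 3.30 and 62.0 TPM for 5 progenitor markers. For 5 immature OSN markers they were 2266 and 3840 TPM, for 5 ensheathing glia markers 18.2 and 30.0 TPM and for 4 endothelial markers 5.56 and 19.6 TPM. For 4 sustentacular markers they were 294 and 410 TPM, and for 4 gland markers 16.8 and 36.5 TPM. The highest Taar5+ sums of the sustentacular and gland markers, 8737 and 6274 TPM, were above the highest control sums, 6325 and 4521 TPM. All 3 horizontal basal cell markers were lower in Taar5+ at an unadjusted p under 0.05 (limma, log2 fold changes from -3.04 to -2.07), none at an adjusted p under 0.05. Over all genes tested, 7.05% were at an unadjusted p under 0.05 in either direction (limma). The part of these cells in the member levels was not tested. The number of table rows above 0 TPM, used here as a measure of library complexity, ran from 9866 to 17808 in Taar5+ and from 5939 to 17015 in control libraries. Control library 2 stood apart with the fewest rows above 0, listed 603 of 3176 abundant genes (median of 50 TPM or more over the 16 libraries) at 0 (0 to 37 in every other library), and held the same values as control library 1 for all 15 Taar genes, though for none of the members. Several results that rest on it are given with and without it, and the ranges over the controls include it.

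Members were detected in every library, and their number differed with the complexity of the library. No member reached 1 TPM in all 16 libraries of the Taar5 line, and 3 members did in 15 of them: Pcdha6, Pcdhb1 and Pcdhb9. The number of members at 1 TPM or more was 17, 39 and 53 (lowest, median and highest) in the 7 Taar5+ libraries and 2, 44 and 55 in the 9 controls, so the groups overlapped along their whole length. Over both groups, Pcdhb2 and Pcdhgc5 never reached 1 TPM.

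**Figure D1:**
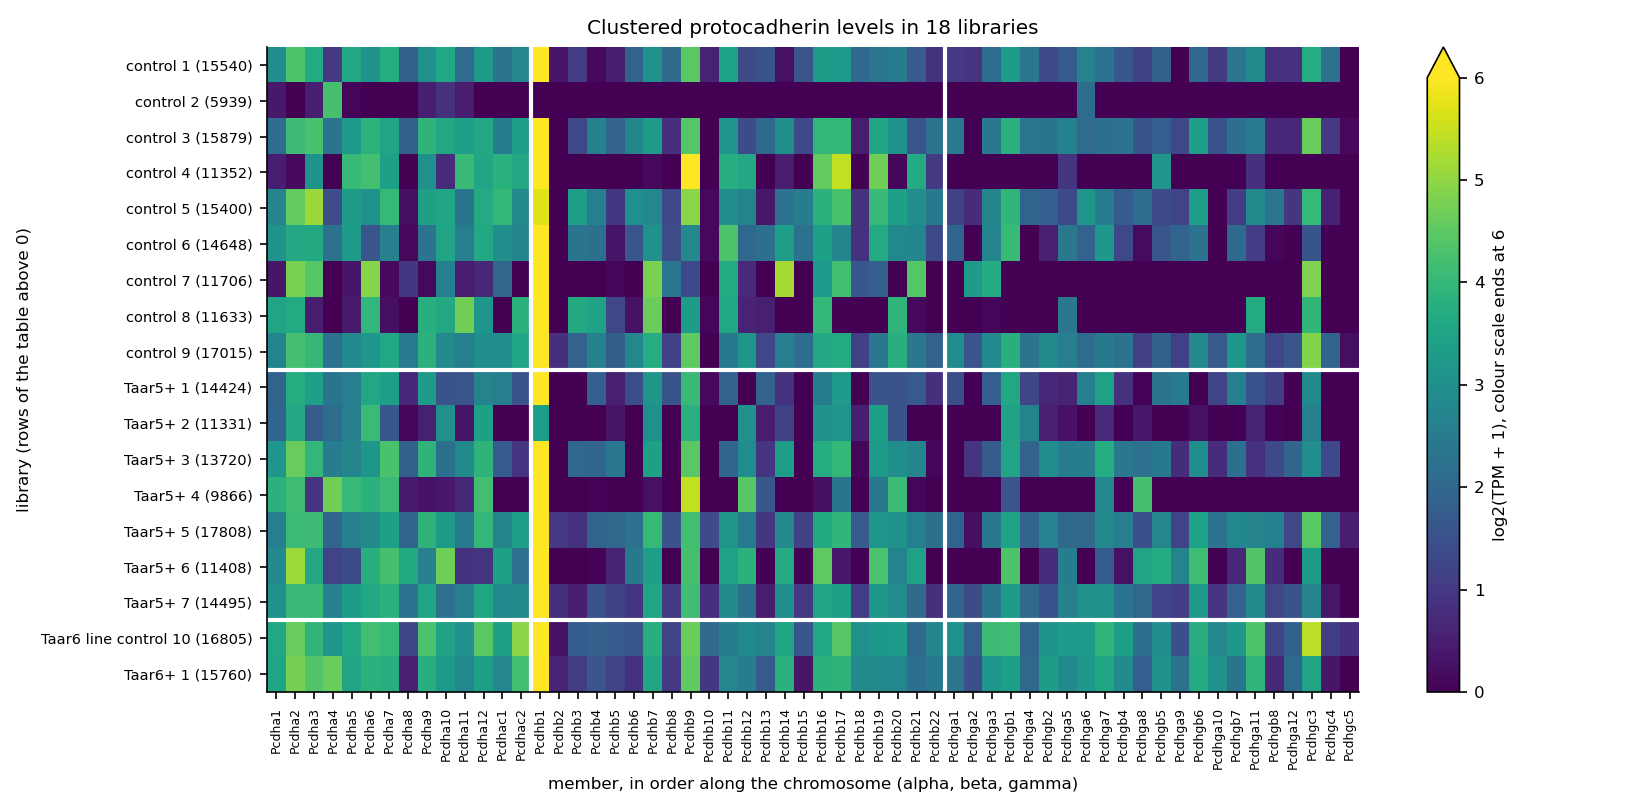
Level of each of the 58 members (columns, in order along the chromosome) in each of the 18 libraries (rows, with the number of table rows above 0), as log2(TPM + 1) on a colour scale that ends at 6. Pcdhb1 is the bright column at the start of the beta cluster, control 2 is nearly blank, and the gamma columns are broken by gaps in the libraries with few rows above 0.

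The libraries fell into a set of 9 with at least 13000 rows above 0 (13720 to 17808; 5 control and 4 Taar5+) and a set of 7 below it (5939 to 11706; 4 control and 3 Taar5+). In the 9 complex libraries 39, 47 and 55 members (lowest, median and highest) were at 1 TPM or more. In the 7 others the numbers were 2, 19 and 32, so the sets did not overlap. The 2 was control library 2, and the next lowest was 17 in Taar5+ library 4. The gap was widest for the gamma cluster, in which 13 to 21 of 22 members were at 1 TPM or more in the complex libraries and 1 to 9 in the others. In the alpha cluster these numbers were 13 to 14 of 14 and 1 to 12, and in the beta cluster 13 to 20 of 22 and 0 to 11. The lowest alpha and beta numbers, 1 and 0, were those of control library 2, and the next lowest were 5 and 7. Each set held both Taar5+ and control libraries, and the cut at 13000 was chosen after the values were seen.

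Summed levels overlapped between the sets. The alpha cluster summed to 79.5 to 152 TPM in the 9 complex libraries and to 20.6 to 141 TPM in the 7 others, and the beta cluster to 134.9 to 264 and 0 to 398 TPM. The gamma cluster summed to 56.5 to 114 TPM (median 82.7) in the complex libraries and to 3.38 to 101.3 TPM (median 25.9) in the others. The lowest alpha, beta and gamma sums were those of control library 2. The next lowest of the 7 were 60.5, 65.3 and 9.30 TPM. In the less complex libraries the gamma cluster was carried by few members. Its highest member supplied 11.3 to 28.1% of the gamma sum in the complex libraries (median 19.4%) and 19.4 to 100% in the others (median 56.8%). The 100% was control library 2, and the next highest was 82.6% in control library 4. That highest member also changed: Pcdhgc3 led the gamma cluster in 7 of 16 libraries, Pcdhgb1 in 4, and Pcdhga6, Pcdhga7, Pcdhga8, Pcdhga11 and Pcdhgb5 in 1 each.

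**Figure D2:**
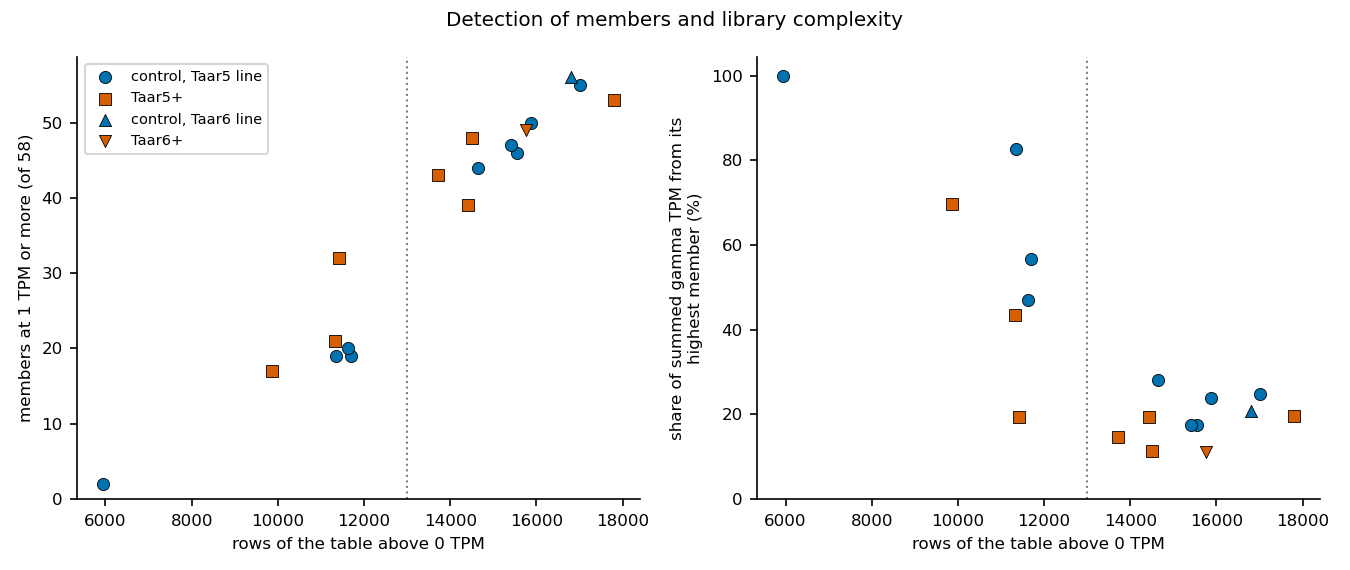
Left, number of members at 1 TPM or more in each library against the number of table rows above 0; right, share (%) of the summed gamma TPM supplied by its highest member. Circles and squares are control and Taar5+ libraries, triangles the 2 libraries of the Taar6 line, and the dotted line marks 13000 rows; to its right every library has at least 39 members at 1 TPM or more, and to its left at most 32.

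The alpha cluster was broadly represented. Its summed TPM was 60.5, 120.3 and 141 (lowest, median and highest) in Taar5+ and 20.6, 108.8 and 152 in control libraries, and the groups overlapped. All 14 alpha members passed the filter of 1 TPM in at least 7 of the 16 libraries, and 11 were at 1 TPM or more in all 9 complex libraries. The mean level over 16 libraries ran from 2.05 TPM for Pcdha8 to 15.9 TPM for Pcdha2, with no member standing far above the next. The lead moved among Pcdha2 and Pcdha3 (5 libraries each), Pcdha6 (3), Pcdha4 (2) and Pcdha11 (1).

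Pcdha2 was at 11.3, 16.1 and 33.6 TPM (lowest, median and highest) in Taar5+ and at 7.27e-08, 16.4 and 26.6 TPM in control libraries. Pcdha3 was at 0.867, 11.3 and 16.4 TPM in Taar5+ and at 0.377, 11.6 and 33.1 TPM in controls. Pcdha6 was at 6.12, 11.0 and 15.95 TPM in Taar5+ and at 1.12e-07, 7.89 and 28.9 TPM in controls. The medians of Pcdha2 and Pcdha3 lay close together in the groups, and the control range was wider at both ends for Pcdha3 and Pcdha6. The SD of Pcdha2 was 7.78 TPM in Taar5+ (n = 7) and 9.22 TPM in control libraries (n = 9). Both were more than the step from the mean of Pcdha2 to that of Pcdha3 (11.8 TPM). Differences between members within a library were not tested.

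The beta cluster was led by its first gene, Pcdhb1, by a wide margin. Pcdhb1 was the highest of all 58 members in 14 of 16 libraries, at 9.18, 109.8 and 140.5 TPM (lowest, median and highest) in Taar5+ and 0, 105 and 208 TPM in control libraries. The 2 low values, 0 in control library 2 and 9.18 TPM in Taar5+ library 2, stood well below all others, which began at 52.1 TPM in controls and 78.5 TPM in Taar5+, and the groups overlapped. Its mean of 101.4 TPM was 5.13 times that of the next member, Pcdhb9, and ranked 1781 of the 23359 symbols. Pcdhb1 made up a median of 56.03% of the beta sum in Taar5+ (14.1 to 60.1%) and 49.2% in the 8 controls other than library 2 (25.7 to 58.5%). Over the 15 libraries with any beta signal, it stood at 0.709 to 8.18 times the next highest beta gene, with a median ratio of 4.92.

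Without Pcdhb1 the beta cluster was close to the alpha cluster in total. The remaining 21 genes summed to 56.1, 92.1 and 123 TPM in Taar5+ and to 0, 119.8 and 189 TPM in control libraries, with overlap. Pcdhb9 was at 13.0, 17.2 and 43.0 TPM in Taar5+ and at 0, 20.2 and 62.3 TPM in controls. Pcdhb17 was at 0.298, 8.39 and 14.9 TPM in Taar5+ and at 0, 11.9 and 42.4 TPM in controls. Pcdhb9 varied over a narrower range in Taar5+ libraries than in controls. At the other end, Pcdhb2 and Pcdhb10 averaged 0.174 and 0.206 TPM, and 15 of 22 beta genes passed the filter.

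The gamma cluster had the lowest sums, 22.8, 79.0 and 108.1 TPM in Taar5+ and 3.38, 56.5 and 114 TPM in control libraries, with overlap. Pcdhgc3 was its highest member by mean (11.0 TPM), ahead of Pcdhgb1 (8.51 TPM) and Pcdhgb6 (4.64 TPM). Pcdhgb1 was at 2.01, 9.96 and 19.1 TPM in Taar5+ and at 0, 8.997 and 15.9 TPM in controls. Pcdhgb6 was at 8.49e-11, 6.93 and 16.7 TPM in Taar5+ and at 0, 3.03 and 9.39 TPM in controls. Every Taar5+ library held at least 2.01 TPM of Pcdhgb1, whereas 4 of 9 controls held under 0.1 TPM, and the remaining controls fell within the Taar5+ range. These 4 were libraries 2, 4, 7 and 8, the controls with under 13000 rows above 0. Taar5+ libraries 2, 4 and 6, also under 13000 rows, held 9.91, 2.01 and 19.1 TPM. The part of complexity in this difference was not tested. In the complex libraries Pcdhgb1 was at 8.89 to 11.2 TPM in Taar5+ and 8.997 to 15.9 TPM in controls. Among the subfamilies in the 9 complex libraries, the 12 gamma A genes summed to a median of 36.4 TPM, the 7 gamma B genes to 35.1 TPM and the 3 gamma C genes to 15.8 TPM.

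Of the 5 C-type members, which sit at the far end of the alpha and gamma clusters, 3 were well detected. Pcdhac1 was at 9.04e-23, 4.997 and 9.57 TPM in Taar5+ and at 9.06e-29, 4.72 and 14.8 TPM in controls. Pcdhac2, known for its role in the tiling of serotonergic axons, was at 1.81e-23, 1.91 and 9.18 TPM in Taar5+ and at 1.27e-28, 6.35 and 13.6 TPM in controls. Pcdhgc3, known to bind Axin1, was at 1.77e-09, 6.30 and 21.3 TPM in Taar5+ and at 0, 14.4 and 28.1 TPM in controls. The Taar5+ medians of Pcdhac2 and Pcdhgc3 were under the control medians, while the ranges overlapped for all 3.

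The other C-type members were scarce. Pcdhgc4, known to act in the survival of interneurons, reached 1 TPM in 2 of 7 Taar5+ and 3 of 9 control libraries, with a highest value of 3.72 TPM in control library 1. Pcdhgc5 did not exceed 0.425 TPM in the Taar5 line and had the lowest mean of all members, 0.043 TPM. Both failed the filter, so no test was made of them.

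**Figure D3:**
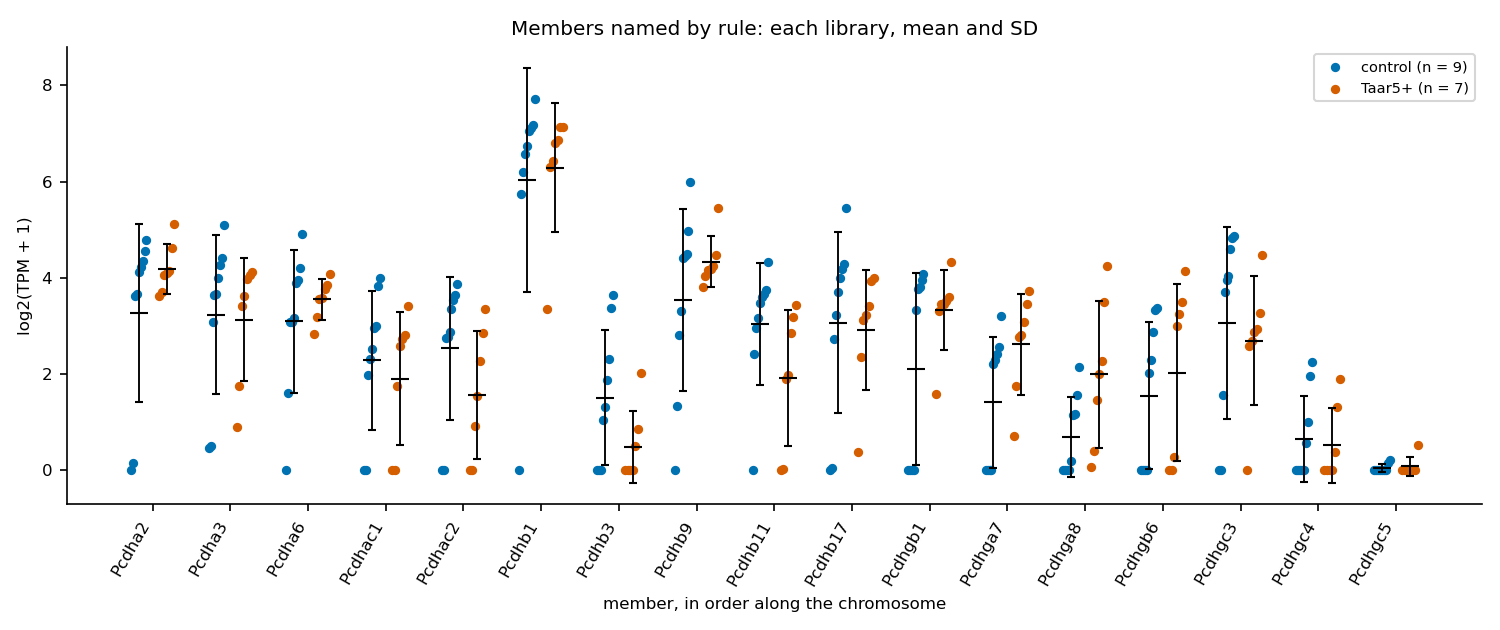
Level of 17 members in each library as log2(TPM + 1), with control libraries (n = 9) in blue and Taar5+ libraries (n = 7) in orange; the horizontal mark is the mean and the bar the SD. For all 17 members the ranges of the groups overlap, and most have points at or near 0 beside points at 2 to 5.

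Low values took a different form in each cluster. Of 352 beta values in the 16 libraries, 89 (25.3%) were exactly 0 and none lay above 0 but under 1e-06 TPM. Of 352 gamma values, 115 (32.7%) were such vanishing estimates, down to 9.79e-64 TPM, and of 224 alpha values 15 (6.70%), down to 5.65e-125 TPM. In all other rows 0.412% of values were of this kind. No alpha value was exactly 0, and the 21 gamma zeros were all in control library 2.

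These vanishing estimates were more frequent in the less complex libraries. In the gamma cluster they made up 19 of 198 values (9.60%) in the 9 complex libraries and 96 of 154 (62.3%) in the 7 others. In the alpha cluster all 15 were in the 7 others, and exact zeros in the beta cluster took 15 of 198 values (7.58%) against 74 of 154 (48.1%). Without control library 2, vanishing estimates in the less complex libraries were 96 of 132 gamma values (72.7%) and 8 of 84 alpha values (9.52%). Exact zeros were then 52 of 132 beta values (39.4%). How the quantification divided reads among members is not stated, and a value under 0.1 TPM is read here only as not detected.

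**Figure D4:**
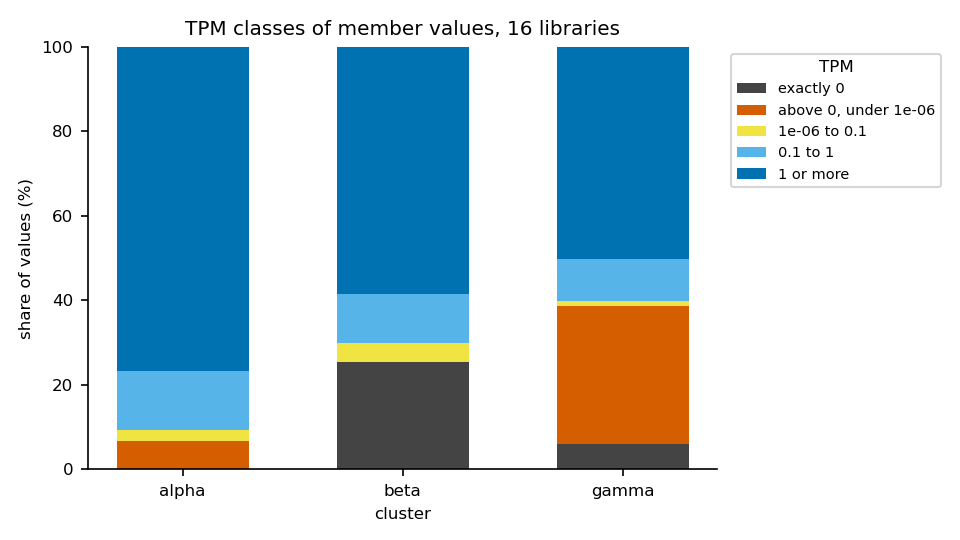
Share (%) of member values in 5 classes of TPM, by cluster, over the 16 libraries of the Taar5 line. Values of exactly 0 fill 25.3% of the beta bar, whereas values above 0 but under 1e-06 fill 32.7% of the gamma bar, 6.70% of the alpha bar and none of the beta bar.

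The annotated transcripts show how much the members have in common. In GENCODE M21, 2811 distinct stretches of 50 bases occurred in the transcripts of all 14 alpha members and 2067 in those of all 22 gamma members, while no stretch occurred in all beta members. By member, 43.8 to 63.9% of the alpha and 26.9 to 65.3% of the gamma stretches were also found in another member. For beta genes this share was 0 to 11.99%, with a median of 4.26%. It was highest for Pcdhb12 and 0 for Pcdhb1, the only member without a stretch in common with another. A further count took stretches found in any other gene, member or not. It matched genes that are not members on either strand, so antisense transcripts count, whereas members were matched on the same strand only. By this count the share of Pcdhb12 was 64.22% and that of Pcdhb1 still 0. Named after their values were seen, Pcdha4, Pcdha11, Pcdhga10 and Pcdhga11 then stood at 91.61, 80.82, 98.98 and 72.4%. Pcdhgc3 rose from 37.73 to 65.2%. Many members kept the same share, among them Pcdha2 (58.17%), Pcdhb9 (8.749%) and Pcdhgb1 (60.96%). The part of shared reads in the low values was not tested. Member sequences are not printed here.

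Between Taar5+ and control cells, no clustered protocadherin differed beyond the spread of the libraries. Of the 58 members, 45 passed the filter of 1 TPM in at least 7 of 16 libraries, and in limma on log2(TPM + 1) 0 of them were called higher and 0 lower at an adjusted p under 0.05. Over all 12502 genes tested, 0.144% were called higher and 0.024% lower, so a count of 0 among 45 is near the background. An unadjusted p under 0.05 was reached by 1 member, Pcdhga8, and by 7.05% of all genes tested. The groups did not overlap for 0 members and for 0.144% of all genes tested.

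The differences were spread to both sides of 0. By sign, 26 of the 45 log2 fold changes were above 0 and 19 below, with a median of 0.23 beside 0.020 over all genes tested, and a range from -1.13 to 1.30. By cluster the median was 0.42 for alpha (14 tested), -0.15 for beta (15 tested) and 0.28 for gamma (16 tested). The median depended on single libraries, since it was -0.010 without control library 2 and -0.046 without Taar5+ library 5. In the 9 complex libraries it was -0.11, beside -0.11 over all genes tested there, with 0 of 54 members called.

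The width of the intervals sets what could have been seen. The standard error of a member's log2 fold change was 0.43 to 0.87 with a median of 0.66, and the 95% confidence intervals reached from -2.55 to 2.86 at their widest. The residual SD of the members had a median of 1.31 on the log2 scale, beside 1.34 for the 10253 other tested genes with a mean level in the members' range. A p that missed the threshold therefore does not show that a member was alike in the groups.

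**Figure D5:**
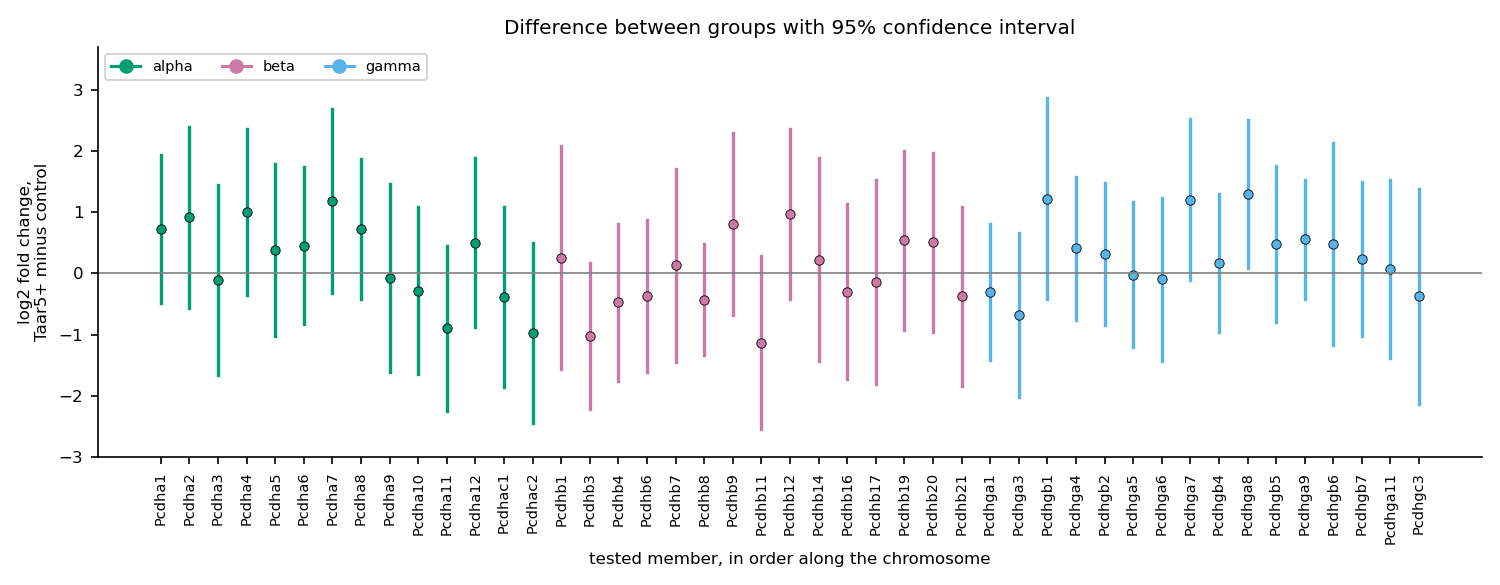
Log2 fold change (Taar5+ minus control, from log2(TPM + 1)) of the 45 tested members in order along the chromosome, with 95% confidence intervals from limma; colours mark the clusters. The interval of Pcdhga8 is the only one that does not include 0 before adjustment, and its adjusted p was 0.637.

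The 3 members with the highest positive differences were all gamma genes. Pcdhga8 was at 0.046, 2.99 and 18.1 TPM in Taar5+ and at 0, 0.138 and 3.41 TPM in controls, a log2 fold change of 1.30 ± 0.58 (SE; limma, adjusted p = 0.637). The Taar5+ libraries above the highest control were 4 (18.1 TPM), 6 (10.3 TPM) and 3 (3.82 TPM), and 4 and 6 were among the less complex libraries. In the 9 complex libraries the log2 fold change of Pcdhga8 was 0.21, and with array weights it was 0.60. For Pcdhgb1, whose values are above, the log2 fold change was 1.22 ± 0.78 (limma, adjusted p = 0.903).

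Pcdhga7 was at 0.632, 6.00 and 12.2 TPM in Taar5+ and at 0, 3.62 and 8.24 TPM in controls, a log2 fold change of 1.21 ± 0.63 (limma, adjusted p = 0.786). All 7 Taar5+ libraries held more than 0.1 TPM of it, and 4 of 9 controls did not. These 4 were again libraries 2, 4, 7 and 8, all with under 13000 rows above 0. Taar5+ libraries 2, 4 and 6, also under 13000 rows, held 0.632, 5.82 and 2.37 TPM of Pcdhga7. In the 9 complex libraries the log2 fold change of Pcdhga7 was 0.73 and that of Pcdhgb1 was -0.31, of the opposite sign.

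The 3 members with the most negative differences were in the beta and alpha clusters. Pcdhb11 was at 0, 2.91 and 9.87 TPM in Taar5+ and at 0, 10.1 and 19.2 TPM in controls, a log2 fold change of -1.13 ± 0.68 (limma, adjusted p = 0.868). Pcdhb3 was at 0, 0 and 3.02 TPM in Taar5+ and at 0, 1.47 and 11.6 TPM in controls, a log2 fold change of -1.03 ± 0.57 (limma, adjusted p = 0.830). For Pcdhac2 the log2 fold change was -0.97 ± 0.70 (limma, adjusted p = 0.929). Their sign was the same in each of the 26 other fits in which they were tested, which left out Pcdhb3 in 7 of them, with adjusted p-values from 0.096 to 0.9985 and none past the threshold.

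The other named members had log2 fold changes between -0.39 and 0.92. The log2 fold change was 0.26 ± 0.87 for Pcdhb1, 0.81 ± 0.71 for Pcdhb9 and -0.15 ± 0.80 for Pcdhb17. It was 0.92 ± 0.71 for Pcdha2, -0.11 ± 0.74 for Pcdha3 and 0.46 ± 0.61 for Pcdha6. Among the C-type members it was -0.39 ± 0.70 for Pcdhac1 and -0.37 ± 0.84 for Pcdhgc3, and for Pcdhgb6 it was 0.48 ± 0.79. The adjusted p-values of these members were 0.941 to 0.991 (limma). The sign of Pcdhb1 rested on control library 2, without which its log2 fold change was -0.50, and Pcdha3, Pcdhb17 and Pcdhgc3 also changed sign with 1 library left out.

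By cluster sums, the difference of the group means of log2(sum + 1) was 0.18 for alpha, 0.45 for beta and 0.57 for gamma, each smaller than the SD between libraries of a group. Control library 2 had the lowest sum of all 16 libraries in each cluster (20.6, 0 and 3.38 TPM), but it held 73.4 TPM of Pcdha4-g, the highest value of that row. With Pcdha4-g counted, its alpha sum was 94.0 TPM, above the 88.1 TPM of control library 7, and the alpha difference between groups was 0.065. Without it the differences were -0.090, -0.43 and 0.17, so the sign for alpha and beta depended on that library. In the 9 complex libraries all 3 were below 0, at -0.13, -0.086 and -0.043. With Pcdhb1 left out of the beta sum, the difference over all 16 libraries was 0.32.

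Among the 9 complex libraries, the profile over members was about as alike between the groups as within them. Spearman's rho over the 58 members between a Taar5+ and a control library was 0.629 to 0.863 (median 0.718, 20 pairs), and between 2 libraries of one group 0.633 to 0.862 (median 0.760, 16 pairs). Between 2 of the 7 less complex libraries it was 0.242 to 0.694 (median 0.475). These correlations are across members, which share reads and are not independent. The coefficient of variation of the 52 members with a median of 1 TPM or more was 20.7 to 113% (median 49.6%), lowest for Pcdhgb1 and highest for Pcdhb3. The groups did not overlap in these libraries for 1 of 54 tested members, Pcdhb15 (0 to 1.28 TPM in 4 Taar5+ and 1.503 to 4.84 TPM in 5 control libraries), a share under the 3.91% of all genes tested there.

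In the Taar6 line, with 1 library per group and so no replicate check, most members were detected. The control held 56 members at 1 TPM or more and the Taar6+ library 49. Pcdhb1 again led the beta cluster, at 429 TPM in Taar6+ and 404 TPM in its control, 78.1 and 73.6% of the beta sum. Levels are not compared with the Taar5 line, where line, reporter and age differ and where the housekeeping gene Gapdh was at 436 to 1222 TPM against 1.43 and 6.06 TPM here.

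Of 56 members at 1 TPM or more in at least one of the pair, 1 was higher in Taar6+ by at least 1 on the log2(TPM + 1) scale, beside 4.89% of all 15189 such genes, and 4 were lower by at least 1, beside 13.8%. Pcdha4 was the higher one, at 23.7 TPM against 8.06 TPM. The 4 lower ones were Pcdhgc3 (10.4 against 41.2 TPM), Pcdha12 (9.53 against 21.2 TPM), Pcdhb15 (0.245 against 1.97 TPM) and Pcdhb10 (0.963 against 3.13 TPM). The median difference of the members was -0.34, beside -0.21 over all genes. Spearman's rho over the 58 members between the libraries of the pair was 0.913.

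Genes that act with the clusters were examined by lists. Of 20 genes known to act in promoter choice, 17 were tested and 0 were called in either direction by limma, with a median log2 fold change of 0.18 and 1 at an unadjusted p under 0.05 (0.144% of all genes tested were called higher, 0.024% lower, and 7.05% were at an unadjusted p under 0.05). Smc1a and Smc3, subunits of cohesin, were its most abundant members, at means of 64.0 and 46.9 TPM, with log2 fold changes of -0.18 ± 0.24 and -0.14 ± 0.26. Ctcf, named outside the rule as the factor of promoter choice, was at 3.03 to 24.9 TPM in Taar5+ and 7.94 to 36.6 TPM in controls. Named after its values were seen, Smchd1, a silencing factor of the clusters, was the gene at an unadjusted p under 0.05, with a log2 fold change of -1.57 ± 0.64 (limma, adjusted p = 0.542). Also outside the rule, Dnmt3b, a methyltransferase known to act on these promoters, did not pass the filter, with at most 3.69 TPM in any library of the line.

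Of 20 signalling partners, such as the kinases and WAVE complex subunits that meet the cytoplasmic tails, 17 were tested and 0 were called by limma (median 0.25, 1 at an unadjusted p under 0.05, beside 7.05% of all genes tested). Psen2, a presenilin of the protease that cuts the proteins within the membrane, had a mean of 273 TPM and a log2 fold change of 0.33 ± 0.21, and Rhoa, a small GTPase, 181 TPM and -0.13 ± 0.27. Of the 12 non-clustered protocadherins, which lie elsewhere and have their own promoters, 8 were tested and 0 were called by limma, with a median of -0.037 and 3 at an unadjusted p under 0.05, beside 7.05% of all genes tested. Pcdh9 was at 1.26, 13.4 and 25.5 TPM in Taar5+ and at 13.8, 40.7 and 74.0 TPM in controls, with a log2 fold change of -1.63 ± 0.49 (limma, adjusted p = 0.279), and Pcdh8 had a mean of 30.1 TPM and a log2 fold change of 1.15 ± 0.66. Named after their values were seen, the others at an unadjusted p under 0.05 were Pcdh7 (-1.87) and Pcdh11x (-1.70).

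Of 17 genes that flank the clusters or lie between them, 13 were tested and 0 were called by limma (median 0.20, 1 at an unadjusted p under 0.05, beside 7.05% of all genes tested). The most abundant were Ndufa2, a subunit of respiratory complex I, and Ik, a splicing factor, at means of 783 and 146 TPM, with log2 fold changes of 0.20 ± 0.22 and 0.18 ± 0.29. The gene at an unadjusted p under 0.05, named after its values were seen, was Cd14, a receptor of myeloid cells (-3.07 ± 0.90, limma, adjusted p = 0.259), in the same direction as the immune markers above. Also outside the rule, Taf7, a single-exon gene between the beta and gamma clusters, was at 6.89 to 16.5 TPM in Taar5+ and 0 to 17.98 TPM in control libraries.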

How the data were processed

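Per the labels and the submitters' processing notes, reads were trimmed with Trimmomatic 0.36, mapped to mm10 (GRCm38) with HISAT2 2.1.0 and quantified with Cufflinks 2.2.1, and the authors deposited 1 table of TPM by gene symbol for 18 libraries. The annotation, strand setting, treatment of reads that map to several genes and step from Cufflinks to TPM are not given in the sources used here. TPM keeps no depth, so read depth is unknown, and the number of rows above 0 TPM stands in for complexity. The study's methods name DESeq2 on counts, which were not used here.

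Rows with one symbol were summed (23847 rows, 23359 symbols). Groups came from the labels. The 7 Taar5+ and 9 control libraries were compared with limma 3.58.1 in R 4.3.3 (lmFit, eBayes with trend, two-sided, Benjamini-Hochberg over all genes tested, threshold 0.05) on log2(TPM + 1), for genes at 1 TPM or more in at least 7 of the 16 libraries; fold changes of low genes are understated on this scale. The Taar values of control library 2, copies of those of library 1, were set to missing. The fit was tested on simulated data with normal noise, with changes placed only in genes of higher mean level. Most tested members lie below that level, so this test does not show what could be detected in them. Nothing in the labels says that libraries came from separate animals, so p-values measure the spread between libraries. The labels give the ages and strain used here, and the study's reporting summary gives another age range and a mixed strain background. Shared 50-base stretches were counted in GENCODE M21 transcripts matched by gene ID.

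The members and lists were chosen with earlier results of these data known. Members named by rule were the 5 C-type genes and the 3 highest by mean TPM in each cluster. The rule also took those past the threshold (none) and the 3 highest and 3 lowest log2 fold changes. From each other list it took the 2 genes with the highest mean. Genes of the other lists named outside this rule are marked in the text. Further members are named without a mark where they stand out in a described result, and these were picked after their values were seen. Pseudocount, filters, quantile scaling, scaling without receptor genes, variance trend, a replicate block, a 10th control and leaving out each library were varied, and array weights and the 9 complex libraries were added after seeing the data.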

Additional observations from a re-analysis of the deposited data

Results flagged for a closer look

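Sums of the clusters, the number of members at 1 TPM or more and the named members were checked within the 7 Taar5+ and the 9 control libraries for a single library far from the rest (a gap to the nearest library, as a share of the range on the log2(TPM + 1) scale, above Dixon's 95% limit). Of 42 such checks 10 were past the limit, and for independent checks of normal values chance gives about 1 in 20. These checks are not independent, since the sums hold named members, and in some groups most values lie near 0. The count is therefore not read against that rate. Control library 2 accounted for 4 of them, as the lowest control for the alpha sum (20.6 TPM, next 86.4, but 94.0 TPM and second lowest with the row Pcdha4-g counted), the beta sum (0 TPM, next 157), Pcdhb1 (0 TPM, next 52.1) and Pcdhb11 (0 TPM, next 4.35).

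Among Taar5+ libraries, library 2 was low for Pcdhb1 (9.18 TPM, next 78.5). Library 4 was low for Pcdhgb1 (2.01 TPM, next 8.89) and Pcdhgc3 (1.77e-09 TPM, next 5.02) and high for Pcdhb9 (43.0 TPM, next 21.1). Library 3 was high for Pcdhb3 (3.02 TPM, next 0.795), and library 5 was high for Pcdhgc5 (0.425 TPM, next 1.3e-09). Taar5+ libraries 2 and 4, like control library 2, had under 13000 rows above 0, and library 5 had the most of all (17808). The part of complexity in these values was not tested.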

How the results depend on the processing

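In 26 other fits, 0 members were called except with array weights, which called 1 lower (Pcdhb6, log2 fold change -1.64, adjusted p = 0.0086) among 1410 genes called, and Pcdh9 there passed the threshold at -1.40 (adjusted p = 0.0022). The 21 genes called became 109 with quantile scaling, 11 without receptor genes in the scaling, 12 with the replicate block, 146 in the 9 complex libraries and 16 to 148 with each library left out (148 without control library 2, 66 without Taar5+ library 5). Signs of uncalled members changed under a pseudocount of 0.1 (Pcdha3 0.024, Pcdhb17 0.27), the block (Pcdhgc3 0.011), the 10th control (Pcdhb1 -0.0062), the 9 complex libraries (Pcdha2 -0.060, Pcdhb9 -0.016, Pcdhb17 0.059, Pcdhgb1 -0.31, Pcdhgb6 -0.35, Smc1a 0.012, Rhoa 0.11, Ik -0.11) and array weights (Pcdhb9 -0.034, Pcdhgb1 -0.071, Pcdhgb6 -0.072, Rhoa 0.018, Ik -0.073). With 1 library left out, ranges that crossed 0 were -0.50 to 0.75 for Pcdhb1, -0.46 to 0.26 for Pcdha3, -0.53 to 0.28 for Pcdhb17 and -0.76 to 0.075 for Pcdhgc3. The causes were not tested. The labels give replicate numbers no shared animal or day, so the numbers were not taken as pairs in the main fit. Of 7 correlations of same-numbered deviations, 5 were above 0.1, and 3 of 7 libraries correlated best with their own number. Whether same-numbered libraries came from one animal or sort is therefore not settled. The fit with the replicate block called 0 members. The median of the members ran from -0.11 to 0.61, and its sign was lost in the 9 complex libraries, with array weights (-0.071), and without control library 2 or Taar5+ library 5. Of 757 recomputed values, 721 were counted as unchanged. For medians and sums this meant a move smaller than the library spread, and for counts a change within a set ratio. For named genes it meant the same sign and side of the threshold. No named gene was called in the main fit, so many values had little room to change, and this share does not measure how firm the results are. Read depth is unknown, and a member at or near 0 in a library with few rows above 0 is not shown to be absent.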
